A study of Mus musculus with 48 samples.

Results

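Tumour necrosis factor (TNF), its receptors and the feedback genes of the NF-kB pathway were followed as 10 of the 34586 genes in a single-cell RNA count table of mouse collagen-induced arthritis (CIA). The members were listed by name as source, receptor and feedback genes of one pathway, and comprised *Tnf*, *Tnfrsf1a*, *Tnfrsf1b*, *Nfkbia*, *Nfkbiz*, *Tnfaip3*, *Birc3*, *Tnfaip2*, *Tnfaip6*, and *Sod2*. All 10 were found in the table, with between 291 unique molecular identifiers (UMIs, each counted as 1 transcript) for *Tnfrsf1b* and 17820 for *Nfkbia* in the cells that carry a deposited cell type. Joint, muscle, lung, skin, and spleen of 10 young adult male DBA1/J mice had been dissociated and sequenced with Seq-Well, in which single cells and barcoded beads settle together in nanowells. The 6 mice with CIA (S1, S2, S3, S5, S6, and S8) had received bovine collagen II in complete Freund's adjuvant followed by a booster in incomplete adjuvant, whereas the 4 healthy mice (H3, H4, H6, and H7) had been given PBS. The labels name no genetic alteration. Joint was sampled in 3 healthy and 5 CIA mice, and each other organ in 4 healthy and 6 CIA mice, which makes 48 samples.

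TNF is a cytokine made by myeloid and lymphoid cells upon activation, and its blockade is an established treatment of rheumatoid arthritis. It binds the receptors TNFR1 (*Tnfrsf1a*), found on most cell types, and TNFR2 (*Tnfrsf1b*), found mainly on immune and endothelial cells. Receptor engagement leads to the degradation of IkBa, the product of *Nfkbia*, and to the release of NF-kB, which in turn induces genes that act back on the pathway. Among these, *Nfkbia* itself and *Tnfaip3* (the ubiquitin-editing enzyme A20) restrain it. Others are *Nfkbiz* (the nuclear IkB protein IkB-zeta, which supports a subset of secondary response genes) and *Birc3* (the ubiquitin ligase cIAP2). *Tnfaip2*, *Tnfaip6* (the secreted hyaluronan-binding protein TSG-6), and *Sod2* (the mitochondrial superoxide dismutase) are induced by TNF without being part of the feedback loop.

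Promoters of the members were read from RefSeq (GRCm38.p6, a C57BL/6J reference, not the DBA1/J strain of the mice) as windows of 300 bases around a RefSeq transcript start. There were 10 windows for 9 members, and *Nfkbiz* had no entry. The kappa B consensus, searched on both strands with overlapping matches of both strands counted as 1, matched in 4 of the 10 windows (40%), against 8.46% of all 32851 promoters. The 4 windows are shown because they hold the matches, which are written in capitals. The window of *Tnf* is shown for comparison and holds no match.
Nfkbia, chr12:55492598-55492897, minus strand: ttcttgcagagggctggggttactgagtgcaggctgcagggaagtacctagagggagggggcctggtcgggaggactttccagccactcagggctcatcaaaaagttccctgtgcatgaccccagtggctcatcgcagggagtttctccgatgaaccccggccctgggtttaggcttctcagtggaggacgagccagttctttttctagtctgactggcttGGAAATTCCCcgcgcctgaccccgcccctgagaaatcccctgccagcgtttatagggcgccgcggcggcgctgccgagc
Tnfaip3, chr10:19015361-19015660, minus strand: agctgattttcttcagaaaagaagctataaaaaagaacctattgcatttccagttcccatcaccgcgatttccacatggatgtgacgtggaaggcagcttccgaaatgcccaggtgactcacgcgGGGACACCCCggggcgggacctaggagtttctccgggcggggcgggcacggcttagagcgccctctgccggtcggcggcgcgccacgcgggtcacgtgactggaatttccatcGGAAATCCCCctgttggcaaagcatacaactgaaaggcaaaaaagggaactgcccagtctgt
Tnfaip2, chr12:111442411-111442710, plus strand: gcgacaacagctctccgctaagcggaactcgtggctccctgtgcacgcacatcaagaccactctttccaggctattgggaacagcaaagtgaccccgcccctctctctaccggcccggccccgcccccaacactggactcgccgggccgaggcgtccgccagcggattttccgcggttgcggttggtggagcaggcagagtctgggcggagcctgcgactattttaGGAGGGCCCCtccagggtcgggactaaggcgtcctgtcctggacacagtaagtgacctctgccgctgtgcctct
Sod2, chr17:13007589-13007888, plus strand: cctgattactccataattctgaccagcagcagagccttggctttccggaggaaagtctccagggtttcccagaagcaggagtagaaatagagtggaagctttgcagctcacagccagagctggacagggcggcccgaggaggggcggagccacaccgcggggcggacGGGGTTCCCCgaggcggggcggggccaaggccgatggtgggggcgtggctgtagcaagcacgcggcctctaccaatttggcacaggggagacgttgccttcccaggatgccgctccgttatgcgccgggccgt
Tnf, chr17:35201958-35202257, minus strand: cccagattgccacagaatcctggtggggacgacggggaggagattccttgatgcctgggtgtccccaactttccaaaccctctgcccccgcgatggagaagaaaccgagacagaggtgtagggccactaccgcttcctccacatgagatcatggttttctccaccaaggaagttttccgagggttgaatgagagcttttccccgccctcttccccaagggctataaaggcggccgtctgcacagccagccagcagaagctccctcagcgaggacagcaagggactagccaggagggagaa
The matches began 29 bases upstream of the RefSeq transcript start of the window in *Nfkbia*, 125 and 12 bases upstream in *Tnfaip3*, 24 in *Tnfaip2*, and 83 in *Sod2*. No match was found in the windows of *Tnf*, *Tnfrsf1a*, *Tnfrsf1b*, *Birc3*, or *Tnfaip6*, which says only that the letters are not in these 300 bases. The narrower core GGANTTTCC, which can overlap the consensus, occurred in 3 of the 10 windows and in 1.25% of all promoters.

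The count table held 13240 cells, of which 12096 had a deposited cell type and were used. Depth differed widely between samples, from 17748 UMIs in a lung to 1645734 in a muscle of CIA mice, so that a value of 1 UMI weighs differently in each. A total of 59 of the 13164 distinct cell barcodes occurred in more than 1 sample. Levels are given as counts per 1000000 UMIs of the same cells (CPM), without further normalization. All mice with severe arthritis (S1, S2, and S3) and healthy mouse H3 carry the prefix 2CIA in their sample names and all others carry CIA, which is treated here as an experiment. Severity and experiment cannot be told apart within the CIA group. Of the 1625 cells labelled myocytes, 1492 (91.8%) came from the muscle of mouse S6. In these labelled cells, markers of skeletal muscle fibres summed to 33.3 CPM and markers of B cells to 2536 CPM, close to the 2957 CPM of B cells, so the name is used here only as a label. Markers of granulocytes reached 116566 CPM in cells labelled dendritic cells and 51225 CPM in endothelial cells, compared with 388610 CPM in granulocytes themselves.

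*Tnf* was spread over all 13 cell types, with the largest number of UMIs in granulocytes and the highest level in neutrophils. Of its 532 UMIs, granulocytes held 136 (25.6%, from 11.7% of all UMIs), macrophages 77, T cells 76, and cells labelled myocytes 55. In CPM, neutrophils (133) and granulocytes (109) came first, followed by macrophages (68.1), NK cells (64.5), and dendritic cells (63.1). The neutrophil level rests on 21 UMIs, 61.9% of them from 1 sample. Basal III cells of the skin (8.48) and fibroblasts (11) came last. The annotation itself was made from expression, so these levels are a description, and no test was made between cell types.

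The main source of *Tnf* UMIs differed by organ. In joint, granulocytes held 78 of 122 UMIs, of which 59 came from mouse S5. The joint granulocytes of the other CIA mice gave 10 UMIs in S1, 3 each in S6 and S8, and 0 in S3, and those of the 3 healthy mice 1 each. In lung, macrophages held 28 of 30 *Tnf* UMIs and 84.2% of the UMIs of all genes. Spleen divided its 151 UMIs between granulocytes (35), monocytes (28), B cells (28), NK cells (21), and other cells. In muscle, T cells and cells labelled myocytes each had 55 of 214 UMIs, and the 23 UMIs of granulocytes all came from healthy mice. Each CIA mouse had only 1 to 4 granulocytes in muscle, too few for a comparison, and skin gave only 15 *Tnf* UMIs.

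The receptors had distinct distributions. *Tnfrsf1a* was highest in neutrophils (114 CPM), endothelial cells (105 CPM), granulocytes (97.2 CPM), and fibroblasts (93.9 CPM). Of its 18 UMIs in neutrophils, 16 came from the muscle of S6, and 62.0% of its 121 UMIs in granulocytes came from 1 sample. It had 0 UMIs in NK cells and erythrocytes, which allows a level of up to 7.16 and 10.5 CPM by a limit of 3 UMIs that covers counting error only. *Tnfrsf1b* was highest in macrophages (80.5 CPM), T cells (42.4 CPM), cells labelled myocytes (36.7 CPM), and monocytes (36.2 CPM). Fibroblasts had 11 CPM of *Tnfrsf1b* and endothelial cells 8.37 CPM.

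*Nfkbia* had the highest level of the members in every cell type. Its level ranged from 521 CPM in erythrocytes to 2523 CPM in endothelial cells, and 11 of the 13 cell types lay between 1014 and 2401 CPM. *Nfkbiz* was highest in granulocytes (292 CPM), endothelial cells (278 CPM), and neutrophils (228 CPM). *Tnfaip3* was instead highest in T cells (166 CPM), neutrophils (158 CPM), and NK cells (127 CPM). *Birc3* was highest in cells labelled myocytes (124 CPM) and B cells (118 CPM), and lowest in Basal III cells (27.9 CPM). Of its 149 UMIs in cells labelled myocytes, 96.6% came from 1 sample, the muscle of S6.

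*Tnfaip6* was the member most restricted to 1 cell type. Fibroblasts held 856 of its 1107 UMIs (77.3%), and their level of 591 CPM exceeded the 116 CPM of endothelial cells, the next highest. Fibroblasts held 525 of 646 *Tnfaip6* UMIs in joint, 170 of 189 in skin, 152 of 241 in muscle, and 9 of 16 in lung. *Sod2* was similar in macrophages (226 CPM) and granulocytes (220 CPM). *Tnfaip2* was highest in erythrocytes (171 CPM) and macrophages (144 CPM). Of the 49 *Tnfaip2* UMIs in erythrocytes, 44 came from spleen, with 23 in mouse S2 and 8 in H4.

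**Figure D1:**
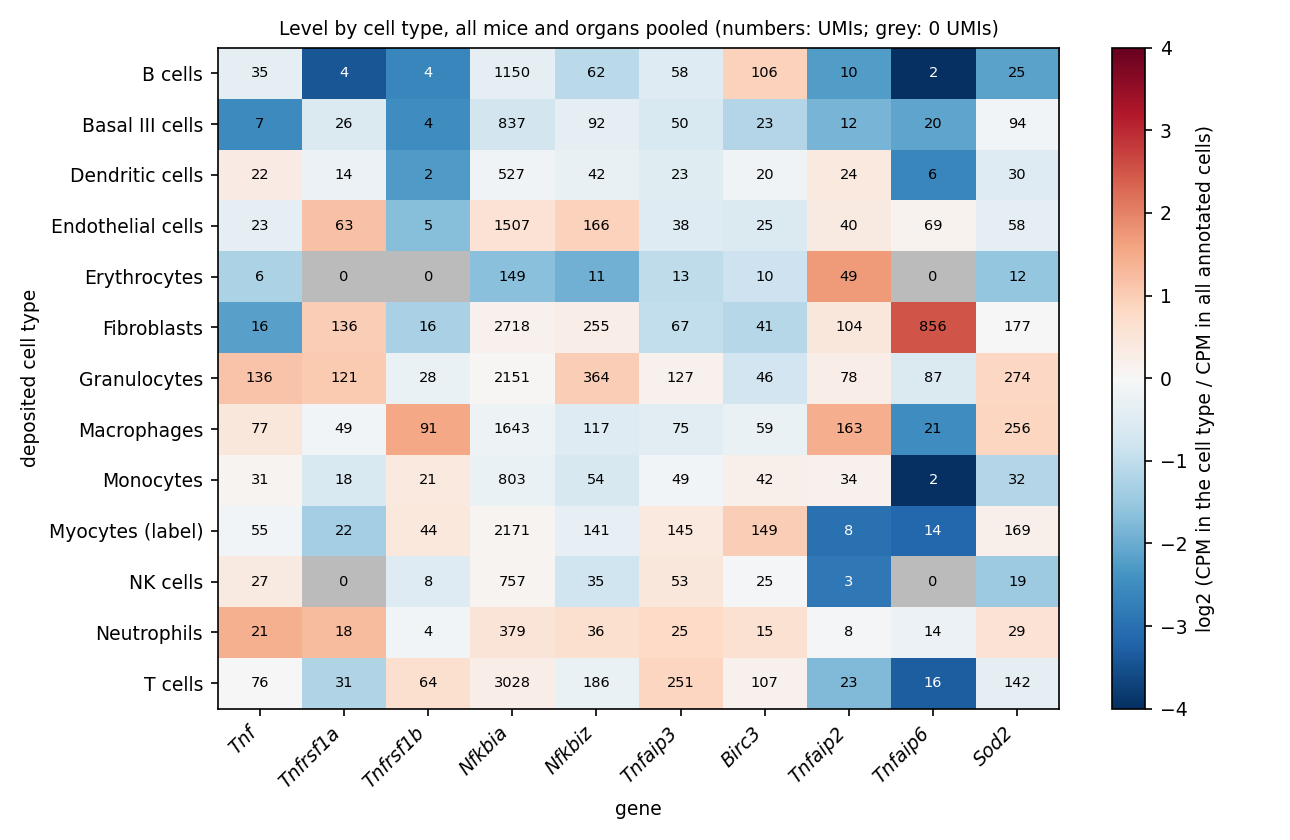
Level of the 10 members (columns) in each deposited cell type (rows) over all mice and organs, as log2 of the CPM in the cell type over the CPM in all annotated cells, with the number of UMIs in each field and grey for 0 UMIs. *Tnfaip6* stands out in fibroblasts (856 UMIs), *Tnf* is above its overall level in granulocytes (136 UMIs) and neutrophils (21 UMIs), and *Nfkbia* is lowest in erythrocytes (149 UMIs).

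Genes with the most similar distribution were sought for *Tnf* and *Nfkbia* over 33 pools of organ and cell type, each with at least 20000 UMIs. The points share libraries and depth, and the ranking is a description. Among 9862 genes, those ranked most like *Tnf* were *Arhgdib* (Spearman's rho 0.84), *Gmfg* (0.81), *Cyba* (0.81), *Sh3bgrl3* (0.81), and *Cotl1* (0.80). Those most like *Nfkbia* were *Gadd45b* (0.85), *Impdh1* (0.72), *Gm11814* (0.72), *Gadd45g* (0.71), and *Wsb1* (0.71).

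CIA and healthy mice were next compared, to ask whether the ligand, its receptors and the feedback genes change with disease in the inflamed joint and in the other organs. UMIs were summed per mouse, and the sums were tested with edgeR's quasi-likelihood test and Benjamini-Hochberg adjustment over all genes tested. For members below edgeR's filter on low counts, values were taken from a fit of all genes with a UMI, called the fit of every gene. Over all annotated cells of an organ, 0 of 50 values (10 members in 5 organs) passed an adjusted p of 0.05, 4 were higher and 2 lower in CIA at an unadjusted p below 0.05, and DESeq2 called 0. Over the 5 organs, 7.23% of the genes past the filter and 5.76% of every gene had an unadjusted p below 0.05. Of the 50 values, 26 passed the filter. For comparison, edgeR called 0.127% of the genes past the filter in joint, 4.96% in lung, 0.055% in muscle, 0% in skin, and 0.137% in spleen. In the fits of every gene, it called 0.274% in joint, 0.435% in lung, 0.25% in muscle, 0.152% in skin, and 0.747% in spleen. In sums over all cells of an organ, fewer cells of a type and less RNA per cell cannot be told apart.

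In a single cell type of an organ, 11 comparisons were possible with a minimum of 10 cells per mouse and 3 mice per group. Of the 110 values, 108 could be fitted, 21 of them past the filter, and 1 passed an adjusted p of 0.05, *Nfkbia* in joint macrophages, which was lower in CIA. At an unadjusted p below 0.05, 8 were higher and 1 was lower in CIA, when 8.91% of the genes past the filter and 4.84% of every gene reached it over the 11 comparisons. The 2 values without a fit were those of *Tnfrsf1a* and *Tnfaip6* in spleen NK cells, which had 0 UMIs. Among genes past the filter, edgeR called 1.68% in joint fibroblasts, 10.3% in joint macrophages, 6.51% in lung macrophages, 0% in muscle fibroblasts, 0.183% in muscle macrophages, and 0.0511% in muscle T cells. It called 0% in Basal III cells and 0% in fibroblasts of skin, and 0% in B cells, 6.36% in monocytes, and 0% in NK cells of spleen. In the fits of every gene, the share was 0.52% in joint fibroblasts, 0.0714% in joint macrophages, 0.193% in lung macrophages, 0.0117% in muscle fibroblasts, 0.0685% in muscle macrophages, and 0.147% in muscle T cells. It was 0.0818% in Basal III cells and 0.0766% in fibroblasts of skin, and 0.0831% in B cells, 0.485% in monocytes, and 0.0971% in NK cells of spleen. Mice with fewer than 10 cells of a type were left out of these comparisons.

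**Figure D2:**
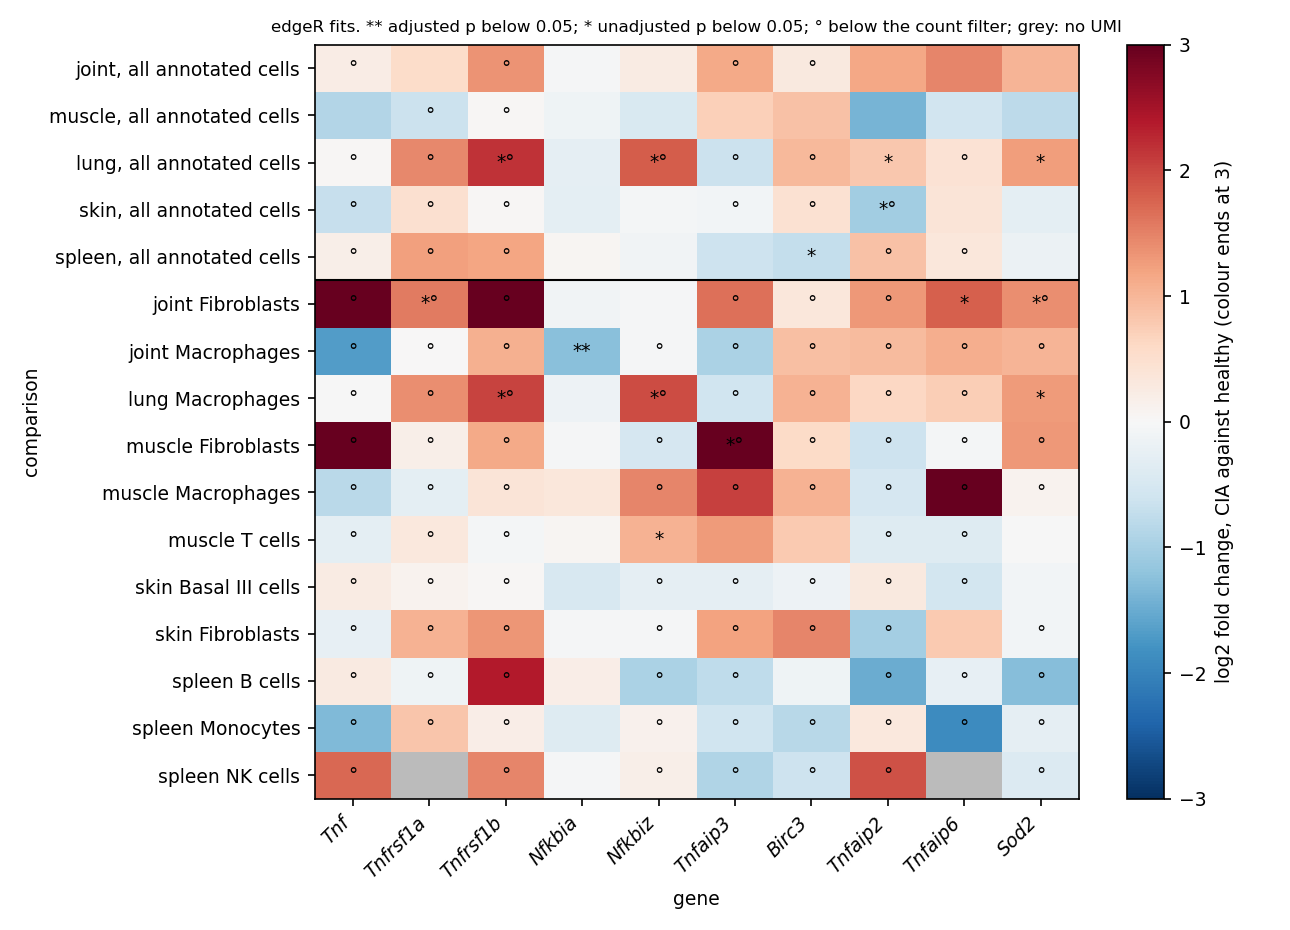
Log2 fold change of each member (columns) in CIA against healthy mice for all annotated cells of 5 organs and for 11 cell types of an organ (rows), from edgeR's quasi-likelihood test. The 1 field with 2 asterisks (adjusted p below 0.05) is *Nfkbia* in joint macrophages, and the fields at the end of the colour scale belong to members with few or 0 UMIs in the healthy mice, whose fitted value depends on the prior count.

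Mean CPM was higher in CIA than in healthy mice for 8 of the 10 members in joint and 8 in lung, for 3 in muscle, 4 in skin, and 5 in spleen. Of all genes detected, 52.7% had a higher mean in CIA in joint, 51.4% in lung, 61.7% in muscle, 54.0% in skin, and 54.0% in spleen. The median log2 fold change of the members in the fit of every gene was 0.92 in joint (0.35 over all genes), 0.86 in lung (-0.11), -0.29 in muscle (0.31), -0.04 in skin (0.12), and 0.20 in spleen (0.21). The median of the members was thus above that of all genes in joint and lung and below it in muscle and skin, while single members lay on either side. *Tnf* in joint, at 0.22, was below the median of all genes. Among genes past the filter, in their own fit, the median was 0.02 in joint, -0.02 in lung, 0.05 in muscle, -0.004 in skin, and -0.009 in spleen. The distance of the members from other genes thus depends on the genes taken for comparison. These medians were not tested.

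*Tnf* itself did not differ between CIA and healthy mice beyond the spread between mice in any organ. In joint, healthy mice had 33.4 (H3), 14.3 (H4), and 125 CPM (H7), from 6, 2, and 9 UMIs, and CIA mice 29.7 (S1), 0 (S3), 65.4 (S5), 79.6 (S6), and 52.1 CPM (S8), from 19, 0, 77, 5, and 4 UMIs. The groups overlapped fully, as the highest and the second lowest level were both in healthy mice. By edgeR, the log2 change was 0.22 (SE 0.71, adjusted p = 0.903 in the fit of every gene). The sign of this value was not stable. It was -0.12 with DESeq2, -0.045 with relative log expression (RLE) size factors, -0.20 with plain library size, -0.41 without S5, -0.24 without H4, -0.03 without H3, and 1.1 without H7.

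In muscle, *Tnf* was at 35.7, 63.0, 87.7, and 85.2 CPM in H3, H4, H6, and H7 and at 0 to 59.5 CPM (median 51.5) in the CIA mice. Most CIA mice lay between the lowest and the second lowest healthy mouse, and S3 had 0 UMIs. This corresponds to a log2 fold change of -0.88 (SE 0.51, adjusted p = 1.00 by edgeR). In skin, healthy mice had 40.7, 17.9, 0, and 24.9 CPM and CIA mice 0 to 16.4 CPM (median 9.59), from 7 and 8 UMIs in all, with a log2 fold change of -0.68 (SE 0.88, adjusted p = 0.796 by edgeR). In these organs the healthy mean was higher but the groups overlapped.

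In lung, *Tnf* was at 45.4, 63.3, 0, and 87.6 CPM in H3, H4, H6, and H7 and at 22.6 to 109 CPM (median 49.6) in CIA mice (log2 fold change 0.05, SE 0.73, adjusted p = 0.977 by edgeR). In spleen, it was at 44.9, 48.6, 73.4, and 41.1 CPM in the healthy mice and at 27.9 to 84.0 CPM (median 37.3) in CIA mice (log2 fold change 0.18, SE 0.48, adjusted p = 0.925 by edgeR). Both pairs of groups overlapped over most of their range. With an SE of 0.48 to 0.88 on the log2 scale, changes of *Tnf* of 1 log2 unit and more could also be missed at this depth.

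**Figure D3:**
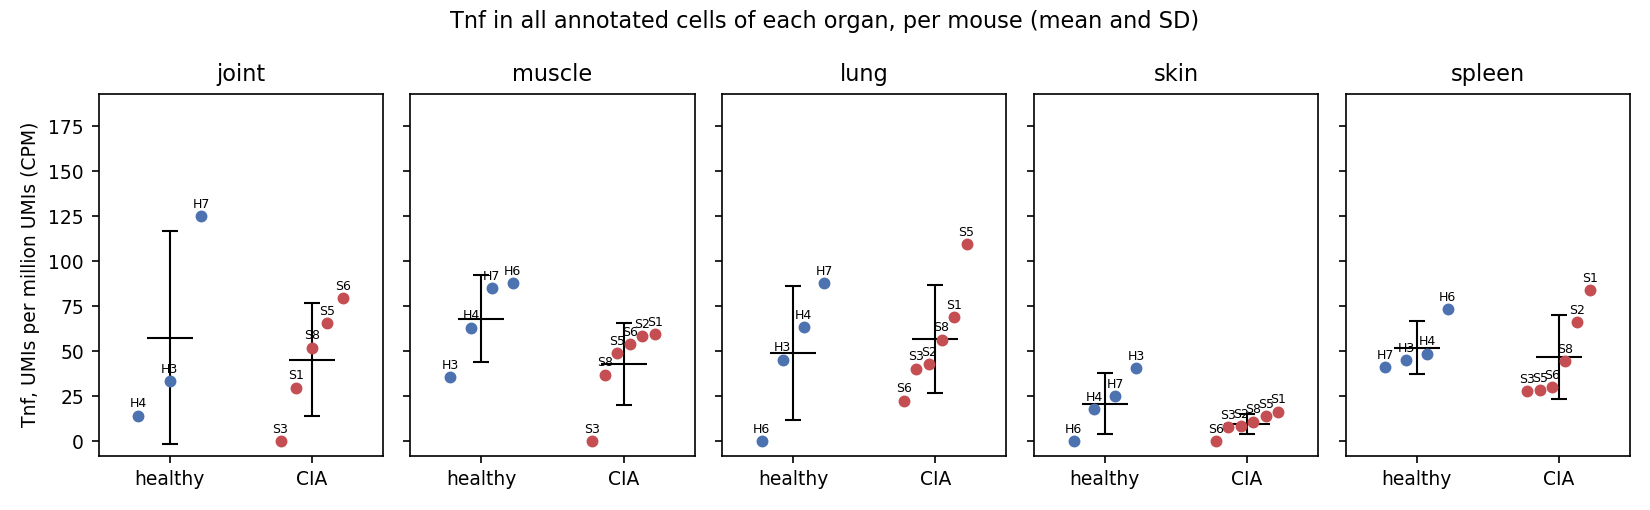
*Tnf* level in CPM (vertical axis) in all annotated cells of each organ for each healthy and CIA mouse, with the mean (long line) and SD (bars). Healthy and CIA mice overlap in all 5 organs, from 0 to 125 CPM in healthy and 0 to 109 CPM in CIA mice.

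In lung, 4 members lay higher in each of the 6 CIA mice than in each of the 4 healthy mice, although none passed the adjusted threshold by edgeR (4.96% of the genes past the filter and 0.435% of every gene were called there). How many of all genes separate the groups in this way was not counted, so the separation cannot be read as particular to the members. At an unadjusted p below 0.05 were 4 of the 10 members, compared with 15.9% of the genes past the filter and 6.13% of every gene. The members were the receptor *Tnfrsf1b*, the feedback gene *Nfkbiz*, and the induced genes *Sod2* and *Tnfaip2*. Macrophages contributed 84.2% of all lung UMIs.

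*Tnfrsf1b*, the receptor TNFR2, was at 22.7, 31.7, 0, and 29.2 CPM in lungs of H3, H4, H6, and H7 (1, 4, 0, and 1 UMIs) and at 85.8 to 202 CPM in CIA mice (median 124, 2 to 11 UMIs). Its log2 fold change was 2.17 (SE 0.73, adjusted p = 0.300 in the edgeR fit of every gene). All healthy mice had 4 UMIs or fewer, so the separation rests on low counts. Within lung macrophages, the values were 28.7, 38.5, 0, and 32.6 CPM in healthy and 80.7 to 263 CPM (median 142) in CIA mice, again without overlap. The log2 fold change there was 2.04 (SE 0.71, adjusted p = 0.583 by edgeR). The other receptor, *Tnfrsf1a*, had 1 UMI in healthy and 5 UMIs in CIA lungs, too few for a comparison.

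*Nfkbiz* showed the same order in lung. Healthy mice had 22.7, 63.3, 25.8, and 29.2 CPM (1, 8, 1, and 1 UMIs), and CIA mice 82.0 to 242 CPM (median 179, 3 to 18 UMIs). The log2 fold change was 1.82 (SE 0.61, adjusted p = 0.292 in the edgeR fit of every gene). In lung macrophages, the levels were 28.7, 67.4, 29.8, and 0 CPM in healthy mice and 104 to 263 CPM (median 210) in CIA mice, with a log2 fold change of 1.96 (SE 0.63, adjusted p = 0.339 by edgeR). The lowest CIA mouse, S5, thus lay above the highest healthy mouse, H4. The other feedback genes did not separate, with *Nfkbia* in lung at 800 to 1520 CPM in healthy and 656 to 1258 CPM in CIA mice.

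*Sod2* was at 136, 142, 103, and 117 CPM in lungs of H3, H4, H6, and H7 and at 164 to 605 CPM (median 330) in CIA mice. All healthy mice lay within a narrow range under the lowest CIA mouse, S5. By edgeR, the log2 change was 1.26 (SE 0.37, adjusted p = 0.0581). With each mouse left out in turn, 2 of 10 fits passed the threshold in edgeR, without S5 (adjusted p = 0.0313) and without S8 (0.0376). In the others the adjusted p reached up to 0.562. It also passed with plain library size (0.0393 by edgeR). In lung macrophages, *Sod2* was at 143, 173, 89.5, and 130 CPM in healthy and 173 to 736 CPM (median 357) in CIA mice (log2 fold change 1.27, SE 0.41, adjusted p = 0.0817 by edgeR, and 0.0498 without S5). This was 1 of 10 fits with a mouse left out, and in the others the adjusted p reached up to 0.556 by edgeR. The levels of H4 and S5 both rounded to 173 CPM, so this separation is marginal. Within the experiment CIA alone, the log2 fold change was 0.54 in lung (adjusted p = 0.723) and 0.42 in lung macrophages (adjusted p = 0.748) by edgeR.

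*Tnfaip2* was at 136, 166, 129, and 146 CPM in healthy lungs and at 186 to 525 CPM (median 252) in CIA lungs (log2 fold change 0.81, SE 0.36, adjusted p = 0.284 by edgeR). The groups were separated in all cells of lung, and in lung macrophages the highest healthy mouse (202 CPM) lay above the lowest CIA mouse (194 CPM). Granulocyte markers moved with these members. All 4 markers were detected in lung macrophages, and their summed level was 356 to 545 CPM (median 374) in healthy and 580 to 14700 CPM (median 4042) in CIA mice. The part of these RNAs in the result was not tested.

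**Figure D4:**
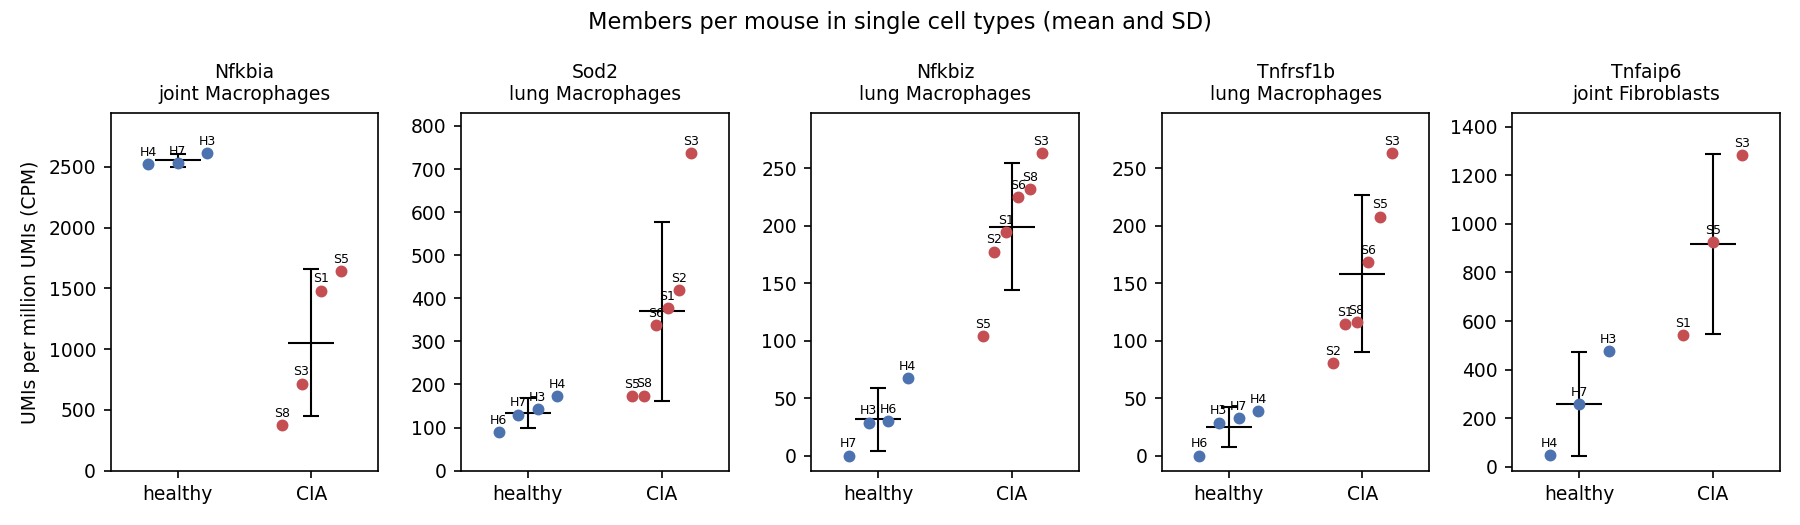
Level in CPM (vertical axes, each panel with its own scale) of *Nfkbia* in joint macrophages, *Sod2*, *Nfkbiz*, and *Tnfrsf1b* in lung macrophages, and *Tnfaip6* in joint fibroblasts, per mouse with the mean (long line) and SD (bars). In each panel the healthy and CIA mice do not overlap, with *Nfkbia* lower and the others higher in CIA, and S5 and S8 lie just above H4 for *Sod2*. This holds for mice with at least 10 cells of the type. Among mice with fewer cells, S6 lay above all healthy mice for *Nfkbia* and S8 below them for *Tnfaip6*.

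*Nfkbia*, the gene of the inhibitor IkBa, was lower in joint macrophages of the 4 CIA mice tested than in those of healthy mice. It was at 2614 (H3), 2521 (H4), and 2529 CPM (H7) in healthy mice and at 1481 (S1), 717 (S3), 1640 (S5), and 376 CPM (S8) in CIA mice, from 108, 30, and 45 and from 139, 13, 216, and 6 UMIs. The fifth CIA mouse, S6, had only 2 joint macrophages and was left out. Its 14 UMIs gave 4945 CPM, above all healthy mice. The healthy mice were nearly equal (2555 ± 51.7 CPM, SD, n = 3), and all 4 CIA mice in the test lay lower and further apart (1054 ± 605 CPM, SD, n = 4). This corresponds to a log2 fold change of -1.26 (SE 0.35, adjusted p = 0.050 by edgeR, just under the threshold), where 10.3% of the 273 genes past the filter were called. DESeq2 gave an adjusted p of 0.0267.

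The call was marginal. With each mouse left out in turn, it remained past the threshold without S5 (adjusted p = 0.0197) and without S8 (0.0428) in edgeR. It was lost without H3, H4, H7, S1, and S3, where the adjusted p was 0.159, 0.129, 0.159, 0.0916, and 0.145 in edgeR. The log2 fold change stayed between -1.51 and -1.08 in these fits. The call was also lost with plain library size (adjusted p = 0.0897) and with the experiment as a term (0.0795) in edgeR. In the fit of every gene it was -0.66 (adjusted p = 0.626 by edgeR). The scaling factors of that fit shifted the fold changes of this comparison by 0.45, which is less than the difference between both values. Within the experiment CIA alone it was -1.25 (adjusted p = 0.322 by edgeR).

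Other genes moved with *Nfkbia* in these cells. The 4 granulocyte markers summed to 924 to 8229 CPM (median 5563) in healthy and 33192 to 59262 CPM (median 45848) in CIA joint macrophages. The 8 immediate early genes *Fos*, *Fosb*, *Jun*, *Junb*, *Egr1*, *Atf3*, *Ier2*, and *Dusp1*, a list written after the levels of *Nfkbia* had been seen, summed to 5615 to 8151 CPM (median 6462) in healthy and 2132 to 4423 CPM (median 3283) in CIA mice. All 8 were detected. The part of either list in the result was not tested. *Tnf* in the same cells was at 96.8, 84.0, and 393 CPM in H3, H4, and H7 (4, 1, and 7 UMIs) and at 32.0, 0, 45.6, and 62.7 CPM in S1, S3, S5, and S8 (3, 0, 6, and 1 UMIs), without overlap between the groups but with few UMIs (adjusted p = 0.608 by edgeR). No other member separated the groups in joint macrophages.

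**Figure D5:**
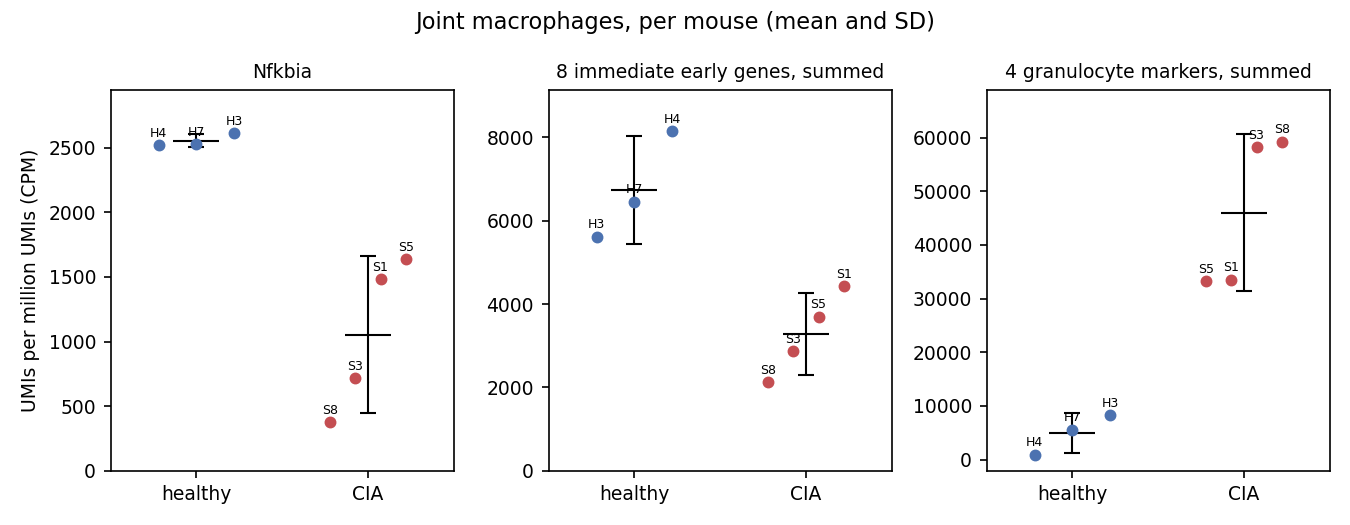
Level in CPM (vertical axes) of *Nfkbia*, of 8 immediate early genes summed, and of 4 granulocyte markers summed in joint macrophages of each mouse, with the mean (long line) and SD (bars). *Nfkbia* and the immediate early genes are lower in all 4 CIA mice with at least 10 cells than in the 3 healthy mice, and the granulocyte markers are higher.

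In joint fibroblasts, the members at an unadjusted p below 0.05 were *Tnfaip6*, *Tnfrsf1a*, and *Sod2*, all with a positive fold change and none past the adjusted threshold by edgeR (1.68% of the genes past the filter and 0.52% of every gene were called). An unadjusted p below 0.05 was reached by 17.8% of the genes past the filter and 7.0% of every gene in these cells. *Tnfaip6*, which encodes TSG-6, was at 475, 46.4, and 259 CPM in H3, H4, and H7 and at 541, 1282, and 925 CPM in S1, S3, and S5. The groups did not overlap, and H3 and S1 lay close together. Mice S6 and S8 had 9 and 4 joint fibroblasts and were left out, and their *Tnfaip6* levels were 888 CPM (17 UMIs) and 0 CPM. The log2 fold change was 1.79 (SE 0.62, adjusted p = 0.183 by edgeR). In the fit of every gene it was 2.22 (adjusted p = 0.0143 by edgeR), of which 0.43 is a shift of the scaling in this comparison.

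*Tnfrsf1a* was at 63.3, 46.4, and 51.8 CPM in joint fibroblasts of H3, H4, and H7 and at 144, 29.1, and 160 CPM in S1, S3, and S5. Here S3, with 2 UMIs, lay under all healthy mice. By edgeR, the log2 change was 1.55 (SE 0.71, adjusted p = 0.650), and 1.06 with the scaling of the genes past the filter. *Sod2* was at 111, 46.4, and 0 CPM in healthy and 97.9, 189, and 95.7 CPM in CIA mice, with a log2 fold change of 1.41 (SE 0.71, adjusted p = 0.707 by edgeR) and overlapping groups. *Tnfrsf1b* had 0 UMIs in the 3 healthy mice and 5 UMIs in the CIA mice. Granulocyte markers in these fibroblasts summed to 1393 to 5900 CPM in healthy and 13231 to 29491 CPM in CIA mice, and their part in the result was not tested.

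In joint as a whole, no member reached an unadjusted p below 0.05. The lowest were those of *Tnfaip6* (0.0552), *Sod2* (0.0652), and *Tnfaip2* (0.0666), with adjusted p between 0.473 and 0.475 in edgeR. *Tnfaip6* was at 184, 35.6, and 167 CPM in healthy joints and at 221, 753, 289, 303, and 39.0 CPM in S1, S3, S5, S6, and S8. Only S8 lay within the healthy range.

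In muscle, *Tnfaip3*, the gene of A20, was found in fibroblasts of CIA mice only. It had 0 UMIs in H3, H4, H6, and H7 and 0, 3, 19, and 7 UMIs in S1, S2, S5, and S6. The healthy fibroblasts held 59853 UMIs of all genes and the CIA fibroblasts 321379. With UMIs pooled over mice and a limit of 3 UMIs for the healthy group, the pooled CIA level was at least 1.80-fold the healthy one. This bound covers counting error of the healthy group only and leaves out the spread between mice. Mouse S5 alone held 19 of the CIA UMIs. With each mouse as 1 replicate, *Tnfaip3* was not called (adjusted p = 0.666 by edgeR). There, 0% of the genes past the filter and 0.0117% of every gene were called. In muscle T cells, *Nfkbiz* was at 53.2, 43.6, and 77.2 CPM in H4, H6, and H7 and at 136, 106, and 160 CPM in S2, S3, and S6, without overlap (log2 fold change 1.05, SE 0.47, adjusted p = 0.765 by edgeR, where 0.0511% of the genes past the filter were called). *Birc3* did not overlap there either, with 53.2, 65.4, and 49.1 CPM against 94.2, 106, and 110 CPM (adjusted p = 0.909 by edgeR). These T cells also held markers of granulocytes, at 6829 to 14377 CPM in healthy and 216 to 10762 CPM in CIA mice, and of erythrocytes, at 9912 to 18155 CPM and 308 to 1298 CPM. Their part in the result was not tested.

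In skin, *Tnfaip2* was at 54.3, 53.8, 80.3, and 74.6 CPM in healthy mice and at 0 to 58.8 CPM (median 22.2) in CIA mice. Only S2, with 14 of the UMIs, reached the healthy range. This corresponds to a log2 fold change of -1.04 (SE 0.51, adjusted p = 0.693 by edgeR). In spleen, *Birc3* was at 98.8, 107, 115, and 82.1 CPM in healthy mice and at 29.9 to 89.3 CPM (median 55.9) in CIA mice, where S1 alone lay within the healthy range (log2 fold change -0.72, SE 0.33, adjusted p = 0.769 by edgeR). In the B cells of spleen, which held 95 of the 195 *Birc3* UMIs, the level was 65.5 to 194 CPM in healthy and 35.8 to 218 CPM in CIA mice, and the groups overlapped.

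The difference of the CIA effect between the inflamed joint and muscle was tested as an interaction over the 18 joint and muscle samples. None of the 10 members was called by edgeR or by DESeq2, and 2 had an unadjusted p below 0.05, where edgeR called 0.0707% of the genes past the filter and 0.302% of every gene. At an unadjusted p below 0.05 were 7.33% of the genes past the filter and 5.69% of every gene. *Tnfaip2* had a difference of 2.53 on the log2 scale (SE 0.92, adjusted p = 0.363 by edgeR). Its mean was 41.5 CPM in healthy and 81.4 CPM in CIA joint, and 51.9 and 18 CPM in muscle. *Sod2* had a difference of 1.79 (SE 0.74, adjusted p = 0.495 by edgeR), with means of 89.4 and 161 CPM in joint and 126 and 78.9 CPM in muscle. For *Tnf* the difference was 0.90 (SE 1.02, adjusted p = 0.901 by edgeR).

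A list of 46 further genes of the pathway, with other ligands, signalling proteins, NF-kB subunits, inhibitors, and induced chemokines, was counted in the same fits. Over all cells of an organ, 224 of 230 values could be fitted by edgeR, 1 was called, lower in CIA, and 15 were higher and 3 lower at an unadjusted p below 0.05. In single cell types, 40 of 506 values had no UMI, 1 was called, higher in CIA, and 27 were higher and 10 lower at an unadjusted p below 0.05. These counts are to be read against the shares of all genes given above for the members. The interaction called 0 of 46, with 3 at an unadjusted p below 0.05 in edgeR, and 0 by DESeq2. The gene called in an organ was the chemokine gene *Ccl20* in joint. It had 48 UMIs in H4, 0 in H3 and H7, 5 in S1, 1 in S3, 3 in S6, and 0 in S5 and S8. The log2 fold change of -3.89 (SE 0.78, adjusted p = 0.000549 by edgeR) thus rested on 1 healthy mouse and became 4.09 (adjusted p = 0.755) without H4. With the experiment as a term it was -3.03 (adjusted p = 0.290 by edgeR).

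*Ccl2*, a monocyte-attracting chemokine induced through NF-kB, rose in spleen monocytes. It was at 0, 117, 155, and 40.8 CPM in H3, H4, H6, and H7 (0, 11, 4, and 1 UMIs) and at 140 to 1155 CPM (median 554, 4 to 97 UMIs) in CIA mice. The lowest CIA mouse, S6, lay within the healthy range and the others above it. The log2 fold change was 2.26 (SE 0.59, adjusted p = 0.0398 by edgeR), where 6.36% of the genes past the filter were called. It lost the call without H3, H4, H6, H7, or S3 (adjusted p between 0.0675 and 0.119), with the mouse number as a replicate block (0.143), with the experiment as a term (0.0864), and in the experiment CIA alone (1.45, adjusted p = 0.663) in edgeR. In these monocytes, granulocyte markers summed to 722 to 1021 CPM in healthy and 2679 to 24005 CPM in CIA mice, and the 10 macrophage markers to 3638 to 7429 CPM and 9187 to 16449 CPM. Their part in the result was not tested.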

How the data were processed

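The authors deposited a table of UMI counts per gene and cell with a cell type for most cells. Per the study's methods and the labels, reads were processed with bcl2fastq, Picard, Drop-seq tools, and STAR. The methods name the mouse build GRCm38, whereas the submitters' processing notes list GRCh38 and mm9. Cells with few UMIs or genes or a high mitochondrial share had been removed, and cell types had been assigned from denoised counts, reference profiles, clusters, and markers. Tissue had been cryopreserved and digested with enzymes, apart from spleen, which was pressed through a strainer. Dissociation acts on all samples before the RNA is captured.

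UMI counts were summed per mouse over all annotated cells of an organ, or over 1 cell type with at least 10 cells per mouse and 3 mice per group, and tested with edgeR 4.0.16 (R 4.3.3; TMM factors, filterByExpr, quasi-likelihood test, Benjamini-Hochberg adjustment over all genes tested, threshold 0.05). Members and listed genes below the filter were taken from a fit of every gene with at least 1 UMI. Experiment and severity did not enter the main models. The SE is the absolute log2 fold change divided by the square root of F. The steps were tested on simulated counts. CPM values use plain library sizes, and limits of 3 UMIs cover counting error only. No doublets were removed here. Python 3.11.15, numpy 2.4.6, pandas 2.3.3, scipy 1.17.1, and matplotlib 3.10.9 were used for sums and plots. Alternatives were DESeq2 1.42.0, other size factors, no filter, other minimum cell numbers, the experiment as a term or CIA alone, the mouse number as a replicate block, and each mouse left out. In muscle, where red cell lysis differed between mice, it was also entered as a term. Fits with the scaling factors of the genes past the filter and the list of immediate early genes were added after seeing the data.

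The members and lists were chosen with earlier results of these data known. All 10 members are named, with a fold change and test where the unadjusted p was below 0.05 and for *Tnf* in each organ and in joint minus muscle. Pathway genes are named where the adjusted p was below 0.05, and values given for any other member were chosen after they were seen. For *Tnf* and *Nfkbia*, the 5 genes with the highest Spearman correlation were taken among genes with at least 100 UMIs. Each mouse counts as 1 replicate.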

Additional observations from a re-analysis of the deposited data

Results flagged for a closer look

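Of 32 groups of 4 to 10 mice tested for a single value far from the others, 2 were flagged, and chance alone flags about 1 in 20 groups. The level of *Nfkbiz* in healthy lungs was 63.3 CPM (8 UMIs) in mouse H4, whereas the next highest mouse had 29.2 CPM. The level of *Ccl20* in CIA joints was 47.8 CPM (3 UMIs) in mouse S6, whereas the next highest mouse had 8.09 CPM.

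The 1144 cells without a deposited cell type entered no comparison. Among these, 5 members had a higher pooled level in the 767 cells of CIA mice than in the 377 cells of healthy mice. *Tnfrsf1a* was at 52.7 against 20.2 CPM (24 UMIs in CIA cells), *Nfkbia* at 1603 against 1239 CPM (730 UMIs), and *Nfkbiz* at 176 against 88.8 CPM (80 UMIs). *Tnfaip3* was at 74.6 against 52.5 CPM (34 UMIs) and *Sod2* at 125 against 72.6 CPM (57 UMIs). The other 5 members were lower in CIA cells, with *Tnf* at 48.3 against 52.5 CPM, *Tnfrsf1b* at 15.4 against 24.2 CPM, *Tnfaip2* at 43.9 against 72.6 CPM, *Tnfaip6* at 43.9 against 44.4 CPM, and *Birc3* at 63.7 against 68.6 CPM. These differences were not tested.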

How the results depend on the processing

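Of 443 alternative values for the 26 named values, 400 kept their direction and their side of the threshold, 18 lost and 5 gained the threshold, 19 reversed, and 1 moved, the number of promoters with the 9-base core in place of the consensus (3). The causes were not tested. Most named values were not called in the main fit, so keeping their side means only that they stayed uncalled. Of the called ones, *Nfkbia* in joint macrophages kept its call and direction in 5 of 14 alternatives. *Ccl20* in joint did so in 14 of 16, and *Ccl2* in spleen monocytes in 11 of 19. Members called over all cells of an organ numbered 0, but 1 with plain library size and 0 to 1 with a mouse left out, *Sod2* in lung without S5 or S8. Members called in a cell type numbered 1, but 0 with plain library size, the experiment as a term, or the experiment CIA alone, and 0 to 2 with a mouse left out. The replicate block (4 comparisons) and at least 20 cells per mouse (7 comparisons) each gave 0, but joint macrophages, which hold the call, could not be refitted there, so these values do not bear on it. Pathway genes called in an organ numbered 1, but 2 with DESeq2 or the experiment as a term, 3 without a filter or in the experiment CIA alone, and 0 to 3 with a mouse left out. The replicate block gave 0, but joint, which holds the call, could not be refitted. In cell types they numbered 1, but 3 with DESeq2 or plain library size, 2 with RLE size factors, the experiment as a term, or the replicate block, 4 without a filter, 0 in the experiment CIA alone, and 0 to 3 with a mouse left out. The joint minus muscle test called 0 members throughout, also with the mouse as a replicate block.

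*Tnf* reversed in joint with DESeq2 (-0.12), RLE size factors (-0.045), and plain library size (-0.20), and ranged from -0.41 to 1.1 with a mouse left out. In lung it reversed in the experiment CIA alone (-0.086) and ranged from -0.28 to 0.48 with a mouse left out. In spleen it reversed with plain library size (-0.038), the experiment as a term (-0.15), the experiment CIA alone (-0.61), and the replicate block (-0.97), and ranged from -0.075 to 0.31 with a mouse left out. *Ccl20* in joint ranged from -4.60 to 4.09 with a mouse left out and reached -4.69 in the experiment CIA alone.

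Healthy and CIA mice share only the numbers 3 and 6 and are different animals, so the replicate block pairs no animals between these groups. It could be refitted in 4 organs and 4 cell types, and was not run in joint, joint and muscle fibroblasts and macrophages, muscle T cells, skin fibroblasts, or spleen NK cells, where fewer than 2 numbers are shared. Joint and muscle samples of the same number are from 1 animal, and their deviations correlated at -0.21 to 0.35 over 4241 genes. The experiment CIA alone was not run in joint fibroblasts and muscle T cells, with fewer than 2 mice in a group. Plain library size moved the median of all genes on the log2 scale by -0.44 in the fit of every gene of joint macrophages. In spleen monocytes it moved that of the genes past the filter by 0.35, and all other shifts lay between these values. At 1 to 20 UMIs per mouse for most members outside *Nfkbia*, depth limits what could be detected.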
